A study of Mus musculus with 8 samples.

Results

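The effect of a microRNA sponge against the miR-15 family was measured in wk3 cells that kept growing in interleukin 7 (IL-7). The comparison held 4 of the 8 arrays of the series, chosen by their titles: 2 arrays of cells with the miR-15 sponge and 2 of cells with a scrambled sponge, all cultured in an excess of IL-7 and compared over all non-control probes. The wk3 line is a mouse pre-B cell line with the genotype SLP-65-/-, so control and sponge cells alike lacked this adaptor protein (gene Blnk). Cells of both groups had been infected with a retroviral vector and selected with puromycin at 1 µg/ml, and their IL-7 came from the supernatant of J558L cells that produce it. The other 4 arrays held the same pair of constructs 36 h after IL-7 was taken away and served here for the spread and for the test of whether the sponge effect depended on IL-7. Each group had 2 replicates, from separate experiments with independently generated clones, so all groups describe a single parental line and the number of arrays limits the precision.

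MicroRNAs of the miR-15 family repress messenger RNAs that pair with their seed, the bases near the 5′ end. Their published targets include cyclins, checkpoint kinases and survival factors such as Bcl2, and the family is known as a brake on the G1 to S transition in lymphoid cells. A sponge is an RNA that offers a microRNA repeated sites to bind and so draws it away from its natural targets. IL-7 sustains the proliferation of pre-B cells through JAK and STAT5 and holds back the recombination of the light chain genes, which starts as IL-7 signalling declines.

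The 6 members that the sponge was designed against are shown as their mature sequences (RefSeq, GRCm38.p6) with bases 2 to 8, the seed, in capitals, because all 6 share it and the letters that pair with it return in the probe data below.
mmu-miR-15a-5p: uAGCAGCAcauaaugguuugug
mmu-miR-15b-5p: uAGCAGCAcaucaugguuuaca
mmu-miR-16-5p: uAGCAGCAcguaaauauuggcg
mmu-miR-195a-5p: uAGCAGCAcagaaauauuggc
mmu-miR-497a-5p: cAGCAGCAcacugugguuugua
mmu-miR-322-5p: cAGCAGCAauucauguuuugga
Complementary to this seed is TGCTGCT. The arrays measured messenger RNAs and not mature microRNAs, so the activity of the family itself has no value here. Of the genes whose transcripts carry these microRNAs, Dleu2 (miR-15a and miR-16) read 1.01 and 0.61 with the scrambled and 1.19 and 0.70 with the miR-15 sponge, and Smc4 (miR-15b and miR-16) read 6.59 and 6.45 against 6.69 and 6.72. Neither was called (adjusted p = 0.732 and adjusted p = 0.448). Blnk, the gene deleted in this line, read 7.57 and 7.43 against 7.17 and 7.17. Whether its probe lies inside the deleted stretch is not known here, so it checks no label.

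Levels are log2 processed signal relative to the array's 75th percentile, so a level of 0 is that percentile and a difference of 1 is a 2-fold change. The change of a gene is the sponge mean minus the scrambled mean, given ± SE, with n = 2 arrays per group throughout. Adjusted p values come from limma, and a gene with an adjusted p below 0.05 counts as called. On the 4 arrays, 50.6% to 54.0% of the spots lay well above background. The lowest share was that of scrambled replicate 1, which also had the most flagged spots (277, against 128 to 149 on the others). Its 75th percentile of processed signal was the lowest as well (297, against 360 to 379). A fit without scrambled replicate 2 with IL-7 leaves this array as the only control with IL-7. The scrambled replicates were the least alike of the 4 groups, with 1160 of 21320 genes over 1 log2 unit apart, against 526 for the sponge replicates with IL-7 and 193 and 354 in the groups without IL-7. The arrays lay on 1 slide with each group at fixed positions, so slide position and construct cannot be told apart. Of 16 pre-B cell markers, 15 were measured, and these 15 lay well above background on all 4 arrays. Rag1 and Rag2 fell among them (0.816% of all genes) and 0 rose (0.286%).

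With IL-7 present, a small set of genes was called in sponge cells, most of them lower, a balance that turned when scrambled replicate 2 with IL-7 was left out. Of 21320 genes and annotated features, 235 were called (1.10%), 61 higher (0.286%) and 174 lower (0.816%), of which 33 rose and 79 fell by 2-fold or more. All 235 had the same sign in both replicate numbers and sponge arrays that did not overlap the scrambled arrays, as the plot of the 2 replicate numbers shows. Arrays that did not overlap were common, since 26.1% of all genes had both sponge arrays above and 24.6% both below the scrambled arrays. The median change over all genes was -0.00 (-0.000127 before rounding). With the replicate number as a block the count was 147 (32 higher, 115 lower), and in the fit of only the 4 arrays with IL-7 it was 4. Without scrambled replicate 2 with IL-7 it was 1363 (808 higher, 555 lower), without sponge replicate 1 or 2 with IL-7 it was 48 or 38, and without either scrambled or either sponge array of the groups without IL-7 it was 92 or 82.

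**Figure D1:**
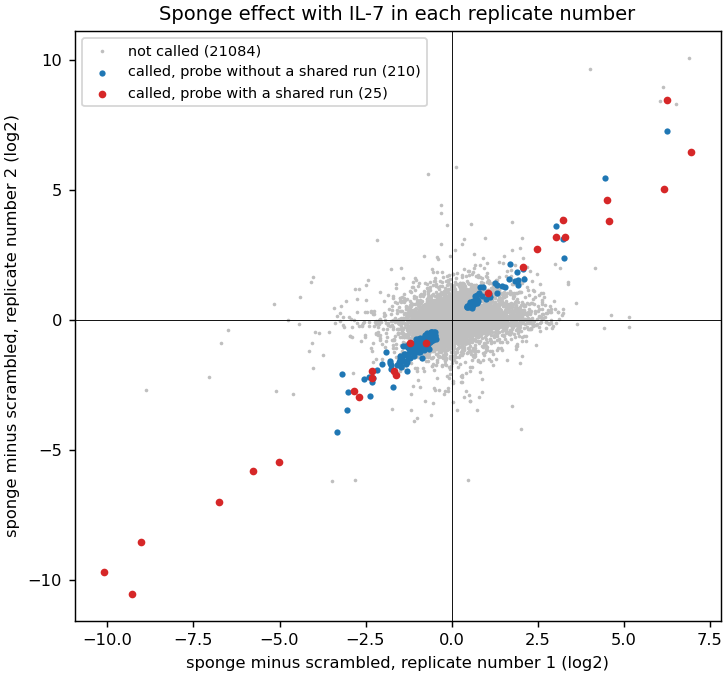
Sponge minus scrambled with IL-7 in replicate number 1 (horizontal axis, log2) and replicate number 2 (vertical axis, log2), 1 point per gene. Called genes lie along the diagonal, and 25 of the 235 (red) have a probe that holds a shared run of letters.

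Many of the widest changes in the comparison came from single probes that shared short runs of letters. Of the 15 probes with the largest rises 12 held such a run, and of the 15 with the largest falls 6 did and 9 did not. Coro2a, which encodes an actin-binding coronin, read 4.69 and 4.99 with the scrambled sponge and -5.41 and -4.68 with the miR-15 sponge, a change of -9.89 ± 0.24 (adjusted p = 0.000145). It was well above background on 1 of 2 sponge arrays, and its second kept probe gave 0.88. Glra4, a glycine receptor subunit, read 2.97 and 3.24 against -6.05 and -5.30, where it was not well above background, and was at least 329-fold lower (adjusted p = 0.000619), a bound set from the lowest signal well above background on each sponge array. The interleukin 20 receptor subunit Il20ra was at least 15-fold lower (-1.43 and -1.31 against -7.20 and -7.09, adjusted p = 4.92e-05). These 3 probes were well above background with the scrambled sponge and at or near background with the miR-15 sponge. In the other direction Gjd3, a gap junction connexin, read -1.72 and -3.99 against 4.53 and 4.49 (7.37 ± 0.95, adjusted p = 0.035). Comp, a cartilage matrix protein, read -3.51 and -3.73 against 1.02 and 0.88 (4.57 ± 0.55, adjusted p = 0.03), and the interleukin 31 receptor subunit Il31ra was at least 32.7-fold higher (-6.29 and -5.18 against -0.12 and -0.15, adjusted p = 0.00565). In each of these 6 genes the groups were far apart and, as in all called genes, did not overlap.

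Parts of the deposited probe sequences are shown for these 6 genes and for 3 other features of similarly wide change, to let the shared letters be seen. Capitals mark the runs of 7 or 8 letters whose probes had a mean change beyond 0.6, and positions are those of the whole probe on mm9. The first 4 probes were lower in sponge cells.
Coro2a (chr4:46556251-46556310): aagcatggaGAAACCTCACCtgacctac
Glra4 (chrX:133297405-133301779): accacagtCCTCACCATgacaactcaga
Il20ra (chr10:19479702-19479761): tacagaagagCTCACCATgatcccagtt
Gm3134 (chr8:91581512-91581571): ttCTCACCATtgacccattggaccttga
The next 5 were higher in sponge cells.
Gjd3 (chr11:98843494-98843553): gcgtcgctgGCTACCGTGCgccaggacc
Comp (chr8:72905692-72905825): ctgcGCTACCGTtgcaatgatacaatcc
Npas1 (chr7:17046680-17046739): aGCTGCTACCagtttgttcatggacagg
Il31ra (chr13:113313458-113313517): ttacgcattGACTGCTGCTAaat
ENSMUST00000155877 (chr12:33878879-33878938): gcctgagaaaGACTGCTGCtgtttgact
The runs of the lower kind overlap one another (AACCTCAC, ACCTCACC, CCTCACCA, CTCACCAT), and so do those of the higher kind (GACTGCTG, ACTGCTGC, TGCTGCTA, GCTGCTAC, CTGCTACC). No exon or untranslated region was assigned, since no annotation of this build was at hand.

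The runs were found by setting each run of 7 or 8 letters held by at least 25 kept probes (13571 and 28146 runs) against the mean change of those probes, and both limits, 25 probes and 0.6, were set after the scan was seen. Their changes with IL-7 are therefore a description and no test. Of these runs, 5 had a mean of -0.6 or lower and 10 had a mean of 0.6 or higher. Of the 163 probes with a run of the lower kind, 19 (11.7%) were lower by over 1 and 1 was higher. Of the 307 with a run of the higher kind, 37 (12.1%) were higher by over 1 and 3 were lower. Among all 30954 kept probes with a value on every array, 1.85% were higher and 1.39% lower by over 1. The run ACCTCACC had a mean of -1.09 over 45 probes, 31.1% of them lower by over 1, and CTGCTACC had a mean of 1.35 over 27 probes, 25.9% of them higher by over 1. The median probe moved little, by -0.23 for ACCTCACC and 0.18 for CTGCTACC.

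The changes on the 4 arrays without IL-7 did not enter the search, but these arrays took part in the filter that kept the probes. Some probes, such as those of Il31ra and Glra4, passed that filter only through the groups where they were high. The values without IL-7 are therefore a description and no test as well. On these arrays the mean change of each run had the same sign as with IL-7. There the mean change was -1.30 for ACCTCACC and 1.51 for CTGCTACC. Of the 163 and 307 probes, 26 were lower and 53 higher by over 1 without IL-7, against 3.31% lower and 4.81% higher among all kept probes. The probe of Coro2a changed by -10.04 and that of Gjd3 by 6.99 without IL-7, and the difference of the 2 sponge effects was 0.16 ± 0.34 and 0.38 ± 1.34 (adjusted p = 0.819 and adjusted p = 0.892). Other kept probes of the same genes or transcribed regions moved less. For 18 genes or regions whose probe with a run moved by over 1 in the direction of its run, 36 other probes without a run were measured, and 0 of these 36 moved by over 1 the same way (-0.63 to 1.32). The probes with a run were picked by their change and the others were not, so this is a description and no test. The other probe of Aqp11 moved by 0.68 beside 1.38, and that of Coro2a by 0.88 beside -9.89. The rest were transcribed regions, and whether the probes of a region read the same transcript was not tested. Whether RNA made from the sponge vectors binds such probes was not tested.

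**Figure D2:**
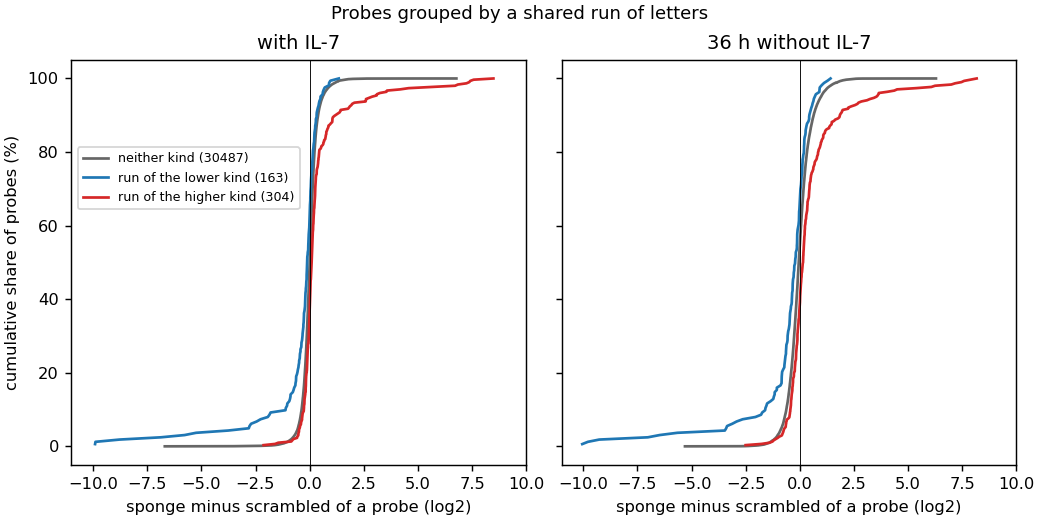
Cumulative share of kept probes (vertical axis, percent) by their change (horizontal axis, sponge minus scrambled, log2) with IL-7 (left) and 36 h without (right). Probes with a run of the lower kind (blue, 163) have a long tail to the left and those with a run of the higher kind (red, 304, less 3 that hold both kinds) a long tail to the right. Of the 30487 other probes (grey), 536 were higher and 408 lower by over 1 with IL-7.

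The complement of the seed overlaps runs of the higher kind, so its values with IL-7 are a description as well. TGCTGCT stood in 0.819% of all probes and in 338 kept ones, of which 21 (6.21%) were higher and 4 lower by over 1 with IL-7, with a mean of 0.22. Followed by A, it stood in 52 kept probes, 11 of them higher by over 1 (21.2%, mean 0.61), and without IL-7 12 of them. The seed itself, AGCAGCA, stood in 203 kept probes with a mean of -0.07, 1 of them higher and 10 lower by over 1. Of the 245 genes represented by a probe with TGCTGCT, 7 were called higher (2.86%, against 0.286% of all genes) and 2 lower. They include Trim68, a ubiquitin ligase whose probe also holds a run of the higher kind (0.50 and 0.51 against 2.57 and 2.56, 2.06 ± 0.07, adjusted p = 0.00047), and Tarbp2, a partner of Dicer (3.84 and 3.84 against 4.41 and 4.40, 0.57 ± 0.08, adjusted p = 0.0496, and adjusted p = 0.0887 with the replicate block). For such a probe, a change of the transcript and binding of other RNA with these letters cannot be told apart. With all probes that hold a run left out, 175 genes were called, 38 higher and 137 lower.

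Both recombinase genes and some genes of B cell maturation fell in sponge cells. Rag1, a subunit of the recombinase that cuts the antigen receptor genes, read -0.87 and -0.50 with the scrambled and -3.42 and -2.75 with the miR-15 sponge, a 5.29-fold fall (-2.40 ± 0.26, adjusted p = 0.024). Its second probe gave -2.15. Rag2, the other subunit, read -0.37 and -0.07 against -1.89 and -1.69 (-1.57 ± 0.18, adjusted p = 0.0253), with -1.89 at its second probe. Both genes were lower in each replicate number, with differences of -2.55 and -2.26 for Rag1 and -1.53 and -1.61 for Rag2 (sponge minus scrambled, numbers 1 and 2). In RNA of whole cultures, fewer cells with a transcript and less of it per cell cannot be told apart. The nuclease Dclre1c (Artemis), which opens the hairpins that Rag1 and Rag2 leave, read 1.56 and 1.61 against 1.03 and 0.87 (-0.64 ± 0.09, adjusted p = 0.039), and its other 3 kept probes gave -0.81 to -0.56. Dclre1c was singled out after its values were seen, because of its place in the same reaction.

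Transcripts of immunoglobulin kappa variable segments, the parts that Rag1 and Rag2 join in the light chain gene, also lay lower. Of 86 features annotated as such segments 72 were measured, 12 of them well above background on none of the 4 arrays. Of the 72, 7 fell (0.816% of all genes) and 0 rose, with a median change of -0.38 beside -0.00 over all genes. This group was picked after its values were seen. On 45 of the 72 segments both sponge arrays lay below both scrambled arrays (24.6% of all genes), and on 9 above (26.1%). The largest fall, of ENSMUST00000103331 (chr6:68686311-68686370, mm9), was from -0.07 and 0.16 to -1.16 and -1.22 (-1.23 ± 0.10, adjusted p = 0.00997). Variable segments are near copies of one another, so a probe may read several of them and the count of segments is uncertain.

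Of 23 measured immature and mature B cell markers, 2 fell (0.816% of all genes) and 0 rose (median -0.21). Cd40, a co-stimulatory receptor, read -2.47 and -2.19 against -3.75 and -4.13 (-1.61 ± 0.22, adjusted p = 0.0414, and adjusted p = 0.0729 with the replicate block). Fcmr, the Fc receptor for IgM, was well above background on 1 of 2 scrambled arrays and on neither sponge array, and was at least 1.72-fold lower (adjusted p = 0.0344). Scimp, an adaptor of antigen-presenting cells, was at least 2.04-fold lower (-4.33 and -4.17 against -6.36 and -5.87, adjusted p = 0.0184). Of 26 pre-B differentiation factors, 2 fell (0.816% of all genes), Rag1 and Rag2, and 0 rose (median -0.13). The surrogate light chain gene Igll1 read 7.29 and 7.39 against 7.05 and 7.24 (adjusted p = 0.302). Among 23 members of pre-BCR and B lineage signalling, 0 were called at an adjusted p under 0.05 by limma, with a median of -0.08 and a range of -0.58 to 0.49. At an unadjusted p under 0.05 by limma there were 6, beside 4092 of all 21320 genes. The 2 sponge arrays of 11 of these 23 lay below both scrambled arrays (24.6% of all genes) and those of 1 above (26.1%).

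**Figure D3:**
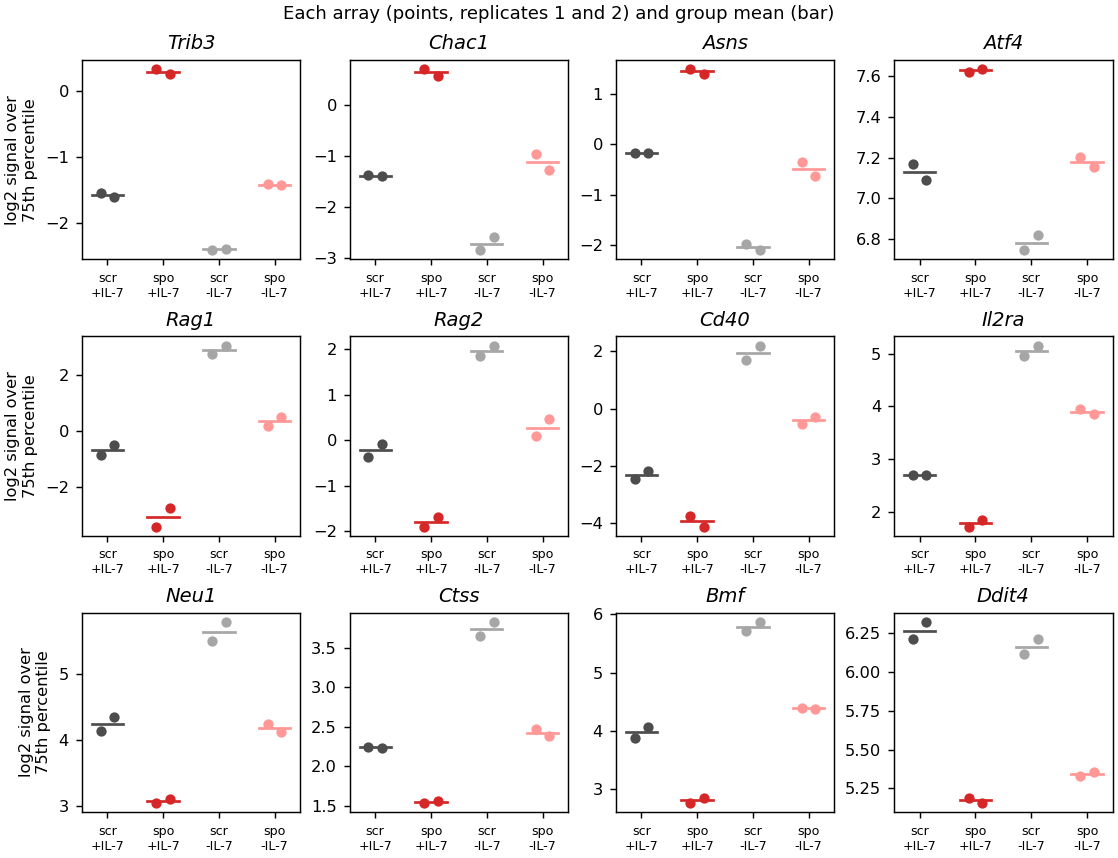
Level of 12 genes on each of the 8 arrays (points, log2 signal relative to the array's 75th percentile) with group means (bars), scrambled sponge (scr, grey) and miR-15 sponge (spo, red) with and without IL-7. Trib3, Chac1, Asns and Atf4 lie higher and the other 8 genes lower in sponge than in scrambled cells with IL-7, with no overlap of the arrays, as in all called genes.

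Among genes of the IL-7 pathway, Cish and Il2ra fell, while no change of the receptor was detected. Il7r, the IL-7 receptor, read 5.75 and 5.59 against 5.85 and 5.78 (0.14 ± 0.08, adjusted p = 0.388). Of 23 measured genes of the IL-7 receptor, JAK and STAT5 pathway, 2 fell (0.816% of all genes) and 0 rose (median -0.07). Cish, a feedback inhibitor induced by STAT5, read -2.20 and -2.02 against -3.11 and -3.22 (-1.05 ± 0.10, adjusted p = 0.0146). Il2ra, the IL-2 receptor alpha chain, read 2.70 and 2.70 against 1.72 and 1.84 (-0.92 ± 0.10, adjusted p = 0.0205). In scrambled cells both genes read higher 36 h without IL-7 than with it, Cish at -0.85 and -0.71 and Il2ra at 4.96 and 5.16. Pim1, a STAT5-induced kinase, read 1.63 and 1.66 against 1.83 and 2.02 (adjusted p = 0.235), and Bcl2 read 0.38 and 0.30 against 0.53 and 0.35 (adjusted p = 0.559). In scrambled cells without IL-7, Pim1 read 1.76 and 1.84 and Bcl2 -1.47 and -1.56.

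Of 20 CDK inhibitors and quiescence genes, 2 fell (0.816% of all genes) and 0 rose, with a median of -0.21. Klf2, a transcription factor of resting lymphocytes, read 0.78 and 0.90 against 0.04 and 0.03 (-0.80 ± 0.08, adjusted p = 0.0175). Tob1, an antiproliferative protein, read -0.06 and -0.09 against -0.85 and -0.93 (-0.81 ± 0.09, adjusted p = 0.022). Of 23 apoptosis regulators 1 was called (1.10% of all genes), the BH3-only factor Bmf, at 3.88 and 4.07 against 2.76 and 2.85 (-1.17 ± 0.10, adjusted p = 0.0107). The groups of Klf2, Tob1 and Bmf did not overlap, as was the case for all called genes.

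Of 28 lysosome and autophagy genes, 3 fell (0.816% of all genes) and 0 rose (median -0.11). The sialidase Neu1 read 4.13 and 4.33 against 3.04 and 3.11 (-1.16 ± 0.13, adjusted p = 0.0242), and the autophagy protein Gabarapl1 1.32 and 1.42 against 0.15 and 0.53 (-1.03 ± 0.14, adjusted p = 0.0439). The protease Ctss read 2.24 and 2.24 against 1.54 and 1.56 (-0.69 ± 0.09, adjusted p = 0.0318, and adjusted p = 0.0679 with the replicate block). Of 19 p53 targets, 2 fell (0.816% of all genes) and 1 rose (median -0.12). The kinase Plk2 read -2.91 and -2.43 against -4.37 and -4.17 (-1.60 ± 0.18, adjusted p = 0.026, and adjusted p = 0.0578 with the block). Trp53inp1, a stress protein, gave -0.58 ± 0.08 (adjusted p = 0.0348, and adjusted p = 0.0574 with the block), and Phlda3, an inhibitor of Akt, was higher by 0.61 ± 0.08 (adjusted p = 0.036, and adjusted p = 0.0677 with the block).

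The list with the most called rises was the amino acid response driven by the transcription factor ATF4. Of 25 measured genes of this list, 7 rose and 1 fell, with a median of 0.48, and 23 of the 25 changes were above 0. The share called higher was 0.286% over all genes. On 22 of the 25 both sponge arrays lay above both scrambled arrays (26.1% of all genes) and on 2 below (24.6%). Trib3, a pseudokinase induced by ATF4, read -1.56 and -1.60 against 0.33 and 0.25, a 3.66-fold rise (1.87 ± 0.07, adjusted p = 0.00047). Chac1, which degrades glutathione, read -1.37 and -1.39 against 0.71 and 0.58, a 4.07-fold rise (2.02 ± 0.14, adjusted p = 0.00631). Asns, asparagine synthetase, read -0.17 and -0.17 against 1.49 and 1.40, a 3.07-fold rise (1.62 ± 0.11, adjusted p = 0.0065). In these 3 genes the gap between the groups was many times that between replicates.

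The other called members were named after their values were seen, to complete the count. Slc7a5, a transporter of large neutral amino acids, read 1.11 and 1.03 against 1.90 and 2.09 (0.93 ± 0.11, adjusted p = 0.03), and its second probe gave 0.20. The mitochondrial serine hydroxymethyltransferase Shmt2 gave 0.76 ± 0.08 (adjusted p = 0.0229), the cysteinyl-tRNA synthetase Cars 0.64 ± 0.08 (adjusted p = 0.0321) and Atf4 itself 0.50 ± 0.07 (7.17 and 7.09 against 7.62 and 7.63, adjusted p = 0.047). The member that fell was Ddit4, an inhibitor of mTORC1, at 6.21 and 6.32 against 5.19 and 5.16 (-1.09 ± 0.08, adjusted p = 0.0065). Atf3, a stress-induced factor of the immediate early list, read -2.80 and -2.92 against -2.08 and -2.11 (0.77 ± 0.08, adjusted p = 0.0175). In the unfolded protein response list, which overlaps the stress pathways upstream of ATF4, 0 of 22 genes were called by limma, with a median of 0.08. At an unadjusted p under 0.05 by limma there were 5 in that list, beside 4092 of all 21320 genes. The 7 rises became 5 with the replicate block, 9 without scrambled replicate 2 with IL-7, 3 without scrambled replicate 1 with IL-7, 1 without either sponge array with IL-7, 3 without any 1 array of the groups without IL-7, and 0 in the fit of only the 4 arrays with IL-7. They became 16 with an intensity trend, 10 with the filter on all 4 arrays with IL-7, and 3 with array weights or with no filter on dim probes. The list's median stayed between 0.37 and 0.51 in all of these and in the other alternatives.

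Promoter letters of the 3 leading genes are shown because they rose together (RefSeq, GRCm38.p6, 5′ to 3′ on the gene's strand, at most 30 bases past the start site). Capitals mark TGATGNAA or, for a match on the other strand, TTNCATCA, the core of the composite element that ATF4 binds with C/EBP factors.
Chac1 (chr2:119350999-119351106, motif 193 bases before the start): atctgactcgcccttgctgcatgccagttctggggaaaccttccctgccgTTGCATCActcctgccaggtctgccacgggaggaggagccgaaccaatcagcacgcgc
Asns (chr6:7693180-7693282, 23 bases before): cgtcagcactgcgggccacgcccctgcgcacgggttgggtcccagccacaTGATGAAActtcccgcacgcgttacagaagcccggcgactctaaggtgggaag
Trib3 (chr2:152344031-152344096, 14 bases after): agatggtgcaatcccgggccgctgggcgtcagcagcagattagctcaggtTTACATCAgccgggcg
In windows of 300 bases, from 250 before to 50 after the start, the motif on either strand stood in 4.51% of 27025 genes and in 2.96% of the 11046 tested genes with such a window. It stood in 8 of the 38 called-higher genes with a window (21.1%) and in 3 of the 105 called-lower ones (2.86%). The 8 were Asns, Chac1, Trib3, Atf3, Iars, Aars, Jdp2 and Plekhh3. Within the ATF4 list it stood in 3 of 5 genes called higher and 3 of 16 others with a window. The motif was chosen after the values were seen, and Chac1, Asns and Trib3 are counted among the 8 and are the 3 of 5. These shares are therefore a description and no test. A match describes these letters and is not a binding site.

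Published targets of the miR-15 family were mostly above 0, and 1 of them was called. Of 43 measured targets 1 rose and 0 fell, with a median of 0.15 and a range of -0.66 to 1.11, and 30 of the 43 changes were above 0. Over all genes 0.286% were called higher, and 10656 of 21320 changes were above 0. At an unadjusted p under 0.05 by limma there were 15 targets, beside 4092 of all 21320 genes. On 22 of the 43 both sponge arrays lay above both scrambled arrays (26.1% of all genes) and on 8 below (24.6%). The called target was Arl2, a small G protein with roles in tubulin folding and mitochondria, at 1.04 and 0.86 against 1.97 and 2.16 (1.11 ± 0.10, adjusted p = 0.0124). With the intensity trend 8 targets rose and 1 fell, with normexp 3 rose and 1 fell, with the filter on all 4 arrays 4 rose, and without scrambled replicate 2 with IL-7 2 rose. Without either sponge array with IL-7, without either sponge array lacking IL-7 and in the fit of only the 4 arrays 0 were called.

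Among the cell cycle targets, Ccne1, cyclin E1, read 4.31 and 4.21 with the scrambled and 4.83 and 4.96 with the miR-15 sponge (0.63 ± 0.30, adjusted p = 0.314). Its arrays did not overlap, its SE takes in a wide gap between the scrambled arrays without IL-7 (1.37 and 0.38), and its second probe gave 0.36. Its first probe holds TGCTGCT and a run of the higher kind, so a change of the transcript and binding of other RNA cannot be told apart there. E2f3, an activating E2F factor, read 2.52 and 2.46 against 3.19 and 3.19 (0.70 ± 0.11, adjusted p = 0.0583). The mitosis-restraining kinase Wee1 read 2.52 and 2.55 against 3.14 and 3.03 (0.55 ± 0.11, adjusted p = 0.0819), and the phosphatase Cdc25a 3.09 and 3.05 against 3.57 and 3.60 (0.51 ± 0.09, adjusted p = 0.0718). These 4 genes had sponge arrays above the scrambled arrays and did not pass the threshold.

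The other cell cycle targets differed less at the probes that stand for them. Chek1, a checkpoint kinase, read -2.42 and -3.13 against -2.52 and -2.59 (adjusted p = 0.649), and the arrays overlapped. E2f7, a repressive E2F factor, read 3.86 and 3.78 against 4.08 and 4.16 (adjusted p = 0.466). The G1 kinase Cdk6 gave 0.31 ± 0.16 (adjusted p = 0.326), and the D-type cyclins Ccnd3 and Ccnd2 gave 0.20 ± 0.10 and -0.34 ± 0.13 (adjusted p = 0.314 and adjusted p = 0.244). Myb, a transcription factor of progenitors, gave -0.10 ± 0.08 (adjusted p = 0.511). Ccnd1 did not pass the filter on dim probes. Myc, which is no member of the list, read -0.37 and -0.29 against -0.46 and -0.35 (adjusted p = 0.637).

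**Figure D4:**
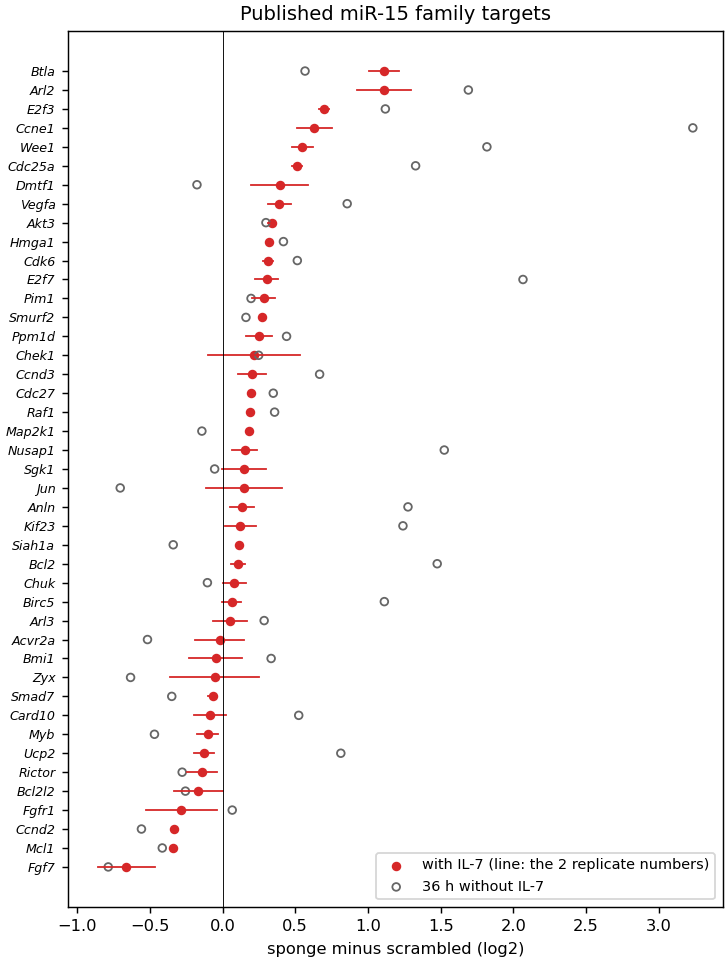
Change of the 43 measured published targets (sponge minus scrambled, log2) with IL-7 (red, the line joining the values of replicate numbers 1 and 2) and 36 h without IL-7 (open circles), sorted by the change with IL-7. Arl2 and Btla have the highest values with IL-7 (1.11 each, Btla with an adjusted p of 0.0661 from limma), and Ccne1, E2f7 and Wee1 lie further to the right without IL-7.

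Genes of DNA replication and mitosis had medians above 0 and few of the lists of dividing cells held a called gene. Of 41 DNA replication genes 0 were called by limma, and 19 at an unadjusted p under 0.05, with a median of 0.37 and a range of -0.03 to 0.79. On 39 of these 41 both sponge arrays lay above both scrambled arrays, against 26.1% of all genes. Mitosis genes (36) had a median of 0.11 and 0 calls by limma, 0 also at an unadjusted p under 0.05. MYC-responsive and ribosome biogenesis genes (28) had a median of 0.29 and 0 calls (17 at an unadjusted p under 0.05). With an intensity trend 6 DNA replication genes rose, and 11 MYC-responsive genes rose and 1 fell, while with normexp 3 and 4 rose and with the filter on all 4 arrays 1 and 2. Of 21 G1/S genes (median 0.20) 1 was called (1.10% of all genes), E2f5, a repressive E2F factor that fell (0.94 and 1.01 against 0.39 and 0.40, -0.58 ± 0.07, adjusted p = 0.0343, and adjusted p = 0.0559 with the block). Cholesterol synthesis genes (22) had a median of 0.20 and 0 calls (9 at an unadjusted p under 0.05, 4 rises with the trend). Of 21 replication-dependent histones (median 0.18) 1 fell (0.816% of all genes), H2ac18 (0.80 and 0.87 against -0.65 and -0.53, -1.42 ± 0.12, adjusted p = 0.00997), a gene with near-identical copies that a probe cannot separate. At an unadjusted p under 0.05, 4092 of all 21320 genes would have passed.

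Most called genes changed the same way when IL-7 had been withdrawn. Of the 235, 228 had the same sign without IL-7 and 217 were also called there in the same direction. These 217 are 92.3% of the calls with IL-7 and 3.21% of the 6750 without (31.7% of all genes). Both effects share the estimate of the spread from all 8 arrays, so the calls are not independent. The share of all genes with the same sign was not counted. The difference between the sponge effects was called for 1219 genes (5.72%), 196 with a higher and 1023 with a lower effect with IL-7, and 33 of the 235 were among them. This count was 702 with the replicate block, 0 without any filter on dim probes (4654 at an unadjusted p under 0.05), 12 without scrambled replicate 1 with IL-7 and 1655 without scrambled replicate 2 with IL-7. It was 0 without scrambled replicate 2, sponge replicate 1 or sponge replicate 2 of the groups without IL-7 or without either sponge array with IL-7 (3315 to 4624 at an unadjusted p under 0.05), and 806 without scrambled replicate 1 without IL-7.

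DNA replication and mitosis were the lists with the largest shares of genes called by this test. Of the 41 DNA replication genes, 34 had a called difference, all with a lower effect with IL-7, their median being 0.37 with and 1.76 without IL-7. The same held for 24 of 36 mitosis genes (0.11 and 1.15), 9 of 21 G1/S genes (0.20 and 0.81) and 8 of 21 replication-dependent histones (0.18 and 0.87). It also held for 6 of 22 cholesterol synthesis genes (0.20 and 0.58) and 10 of 43 published targets (0.15 and 0.33). Over all genes 5.72% had a called difference, 196 with a higher and 1023 with a lower effect with IL-7. For Ccne1 the sponge changed the level by 0.63 with and 3.23 without IL-7, where it read 1.37 and 0.38 in scrambled and 4.16 and 4.06 in sponge cells (difference -2.60 ± 0.43, adjusted p = 0.0336), all at the probe that holds a run. No difference was detected for the recombinase genes, at -2.40 and -2.55 for Rag1 (adjusted p = 0.845 for the difference) and -1.57 and -1.70 for Rag2 (adjusted p = 0.795). Asns changed by 1.62 and 1.55 (adjusted p = 0.827), while Trib3 rose further with IL-7, by 1.87 against 0.98 (difference 0.89 ± 0.10, adjusted p = 0.028). In the ATF4 list Trib3 alone had a called larger effect with IL-7 and 3 members a smaller one, with medians of 0.48 and 0.67.

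**Figure D5:**
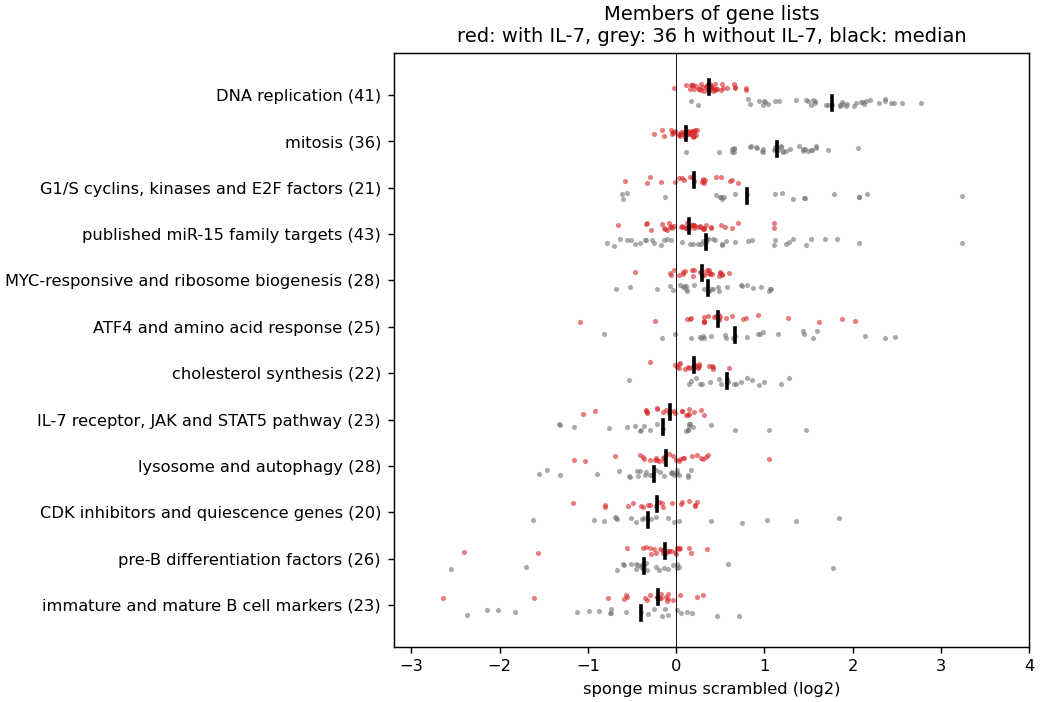
Change of every measured member of 12 gene lists (horizontal axis, sponge minus scrambled, log2) with IL-7 (red) and 36 h without (grey), with medians as black bars and the number of members in parentheses. DNA replication has medians of 0.37 and 1.76 and mitosis 0.11 and 1.15, whereas the ATF4 list lies at 0.48 and 0.67 and B cell markers lie at -0.21 and -0.39.

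Further genes among the 15 largest rises and falls with a gene name were in none of the lists above. Adap2, a regulator of the Arf6 G protein, read -3.68 and -4.49 against 0.79 and 0.97 (4.97 ± 0.36, adjusted p = 0.00739), and Jdp2, a bZIP repressor, read -5.36 and -4.64 against -2.10 and -2.23 and was well above background on 1 of 2 scrambled arrays (2.83 ± 0.25, adjusted p = 0.0122). Cenpv (1.65 ± 0.17, adjusted p = 0.0186) and Uaca (1.39 ± 0.20, adjusted p = 0.0473, and adjusted p = 0.0618 with the block) also rose, as did the cytochrome oxidase subunit Cox6a2 (1.74 ± 0.19, adjusted p = 0.0242, and adjusted p = 0.0574 with the block). The pheromone receptor gene Vmn2r7 was at least 2.99-fold higher (adjusted p = 0.00739), and Tmco5 and Efcc1 were at least 1.14-fold and 1.35-fold higher (adjusted p = 0.0288 and adjusted p = 0.0498, and adjusted p = 0.0636 and adjusted p = 0.0876 with the block). All 3 were not well above background in scrambled cells.

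Among the falls, Tnfrsf14, the receptor HVEM, read 1.58 and 0.72 against -1.43 and -2.04 (-2.89 ± 0.32, adjusted p = 0.024), and its second probe gave -0.49. The unconventional myosin Myo7a read -1.47 and -1.23 against -3.76 and -3.45 (-2.25 ± 0.16, adjusted p = 0.00668), and Nyx, a leucine-rich proteoglycan, read 0.87 and 0.95 against -0.89 and -0.93 (-1.82 ± 0.11, adjusted p = 0.00452). The arrays of these 3 genes, like those of all called genes, did not overlap between the groups. Cfi, complement factor I, gave -1.72 ± 0.22 (adjusted p = 0.0343), and Lrrc73 gave -2.62 ± 0.34 (adjusted p = 0.036, and adjusted p = 0.0782 with the block) with scrambled arrays 1 log2 unit apart (0.05 and -1.01). Lipt2, a lipoyl transferase whose probe holds a run of the lower kind, gave -2.81 ± 0.09 (adjusted p = 0.00047). Pinlyp was at least 3.55-fold lower (adjusted p = 0.0065). The prostaglandin receptor Ptger3, whose probe holds a run of the higher kind, was not well above background on any of the 4 arrays (adjusted p = 0.0122), so no fold is given.

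Markers of other cell types gave little. Over all genes 1.10% were called, and 4092 of 21320 passed an unadjusted p under 0.05 by limma. Of 17 measured myeloid markers 1 was called, the Fc receptor Fcgr3 (-0.69 ± 0.08, adjusted p = 0.0301, and adjusted p = 0.0517 with the block), and their summed level was 417 and 325 times the 75th percentile in scrambled and 399 and 347 in sponge cells. Of 6 NK cell markers 1 was called, Klrd1, well above background on 1 of 2 scrambled arrays and on neither sponge array (at least 1.51-fold lower, adjusted p = 0.0183), with summed levels of 3.80 and 4.05 against 3.43 and 3.67. Of 8 T cell, 10 erythroid, 3 fibroblast, 4 mast cell, 9 plasma cell and 10 stem and progenitor markers, 0 were called by limma and 3, 0, 0, 0, 1 and 3 at an unadjusted p under 0.05. The summed level of the T cell markers was 56.2 and 59.3 in scrambled and 47.6 and 52.8 in sponge cells, with no overlap. The others ran from 2.08 to 2.31 (erythroid), 0.196 to 0.233 (fibroblast), 0.684 to 0.908 (mast cell), 141 to 163 (plasma cell) and 237 to 253 (stem and progenitor) over the 4 arrays. The remaining members of these 8 lists did not pass the filter on dim probes. The part of other cells in any result was not tested.

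The remaining lists held few called genes. Over all genes 0.286% were called higher and 0.816% lower, and 4092 of 21320 passed an unadjusted p under 0.05 by limma. Of 20 microRNA processing genes Tarbp2 rose and 0 fell (median -0.03), and of 21 heat shock and immediate early genes Atf3 rose and 0 fell (0.02). Of 26 interferon response genes (median -0.07) the GTPase Gbp2 fell (-0.59 ± 0.09, adjusted p = 0.0496, and adjusted p = 0.0698 with the block). Of 16 eicosanoid and phospholipid enzymes (median -0.28) the thromboxane receptor Tbxa2r fell (-0.75 ± 0.08, adjusted p = 0.0186). By limma 0 were called of 25 genes of NF-kappaB and the TNF family (median -0.18, 9 at an unadjusted p under 0.05), 22 adhesion and homing receptors (-0.24, 10) and 19 glycolysis genes (0.16, 6). Of 7 genes that host microRNAs of the family 4 were measured and 0 called by limma (median 0.16, 0 at an unadjusted p under 0.05).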

How the data were processed

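Labelled RNA of each sample was hybridised to 1 one-colour Agilent array (59305 spots, 55681 non-control probes, mm9 per the file headers). The deposited intensity values are processed signals from Agilent Feature Extraction, version 10.7.3.1 per the file headers and 10.7.1.1 per the submitters' processing notes. Quality flags that this software wrote in other columns were used as filters.

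Here log2 signal was set relative to each array's 75th percentile. Flagged outlier spots were left out, and a probe was kept if well above background on both arrays of 1 or more groups (30963 probes). The brightest kept probe stood for a gene (21320). limma 3.58.1 (R 4.3.3) fitted group means over all 8 arrays with Benjamini-Hochberg adjustment. It was tested on simulated data. An exact permutation test of 2 arrays against 2 cannot go below p = 0.33.

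Members and lists were chosen with earlier results of these data known. Named genes were the 15 largest called rises and falls with a gene name (predicted, Riken and clone names left out by pattern), up to 4 called members of each list, and set targets. Called genes were named only where sponge and scrambled arrays with IL-7 did not overlap, which held for all 235. The motif (a narrower form was also looked at), its promoters and the genes of the per-array plot were chosen after values were seen. Replicates were independent experiments per the labels. That equal replicate numbers of different groups belong to the same experiment is an assumption of the replicate block and of the differences per number. The correlations of the deviations between groups ran from 0.0178 to 0.131. The alternatives were other scalings, filters, probe rules and fits, and each array left out.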

Additional observations from a re-analysis of the deposited data

Results flagged for a closer look

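For 14 named genes limma called a difference between the sponge effect with and without IL-7 (adjusted p under 0.05 for the effect with IL-7 minus the effect without). The effect was smaller with IL-7 for Ccne1 (-2.60), E2f7 (-1.76), Wee1 (-1.27) and Cdc25a (-0.81), which drive or restrain cell cycle steps, and for the survival factor Bcl2 (-1.37), Atf3 (-0.99) and Phlda3 (-0.63). Myc (-1.12) changed by -0.07 with and 1.05 without IL-7. Tnfrsf14 (-2.97) fell by 2.89 with IL-7 and changed by 0.09 without it. Trib3 (0.89) rose further with IL-7 than without. Tmco5 (2.08) and Efcc1 (2.19) changed by -0.15 and -0.33 without IL-7, and since both were not well above background in scrambled cells with IL-7, the sizes of these differences rest on background signal. Klf2 (0.82) and Ctss (0.62) fell less with IL-7 than without. The probe of Ccne1 holds a shared run of letters, and the second probes of Tnfrsf14 and Ccne1 gave -0.49 and 0.36 with IL-7. Calls of this difference depended on single arrays, since leaving out either sponge array with IL-7 left 0 genes called (3787 and 4624 at an unadjusted p under 0.05). Leaving out scrambled replicate 2 or either sponge array without IL-7 also left 0 (3315 to 4023 at an unadjusted p under 0.05), while scrambled replicate 1 with IL-7 left 12 and scrambled replicate 1 without IL-7 left 806.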

How the results depend on the processing

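The 235 calls (61 higher, 174 lower) stayed within 1.5 times under quantile scaling (224), median scaling (211), the deposited value table (223), flagged spots kept (237), the mean of a gene's probes (241) and, added after seeing the data, probes with a shared run left out (175, with 38 higher). Calls numbered 532 with normexp (172 higher, 360 lower), 82 with no filter on dim probes (21, 61), 376 with a filter on all 4 arrays (124 higher), 4 with only those 4 arrays (2, 2), 99 with array weights (24, 75) and 985 with an intensity trend (438, 547). With the replicate block they numbered 147 (32, 115), 131 of them shared, and the block ended the calls of 14 of 52 named genes. Of these 52 calls, 50 were lost with only the 4 arrays, 32 with no filter, 22 with array weights, 43 or 42 without sponge replicate 1 or 2 with IL-7, 22 without scrambled replicate 1 with IL-7, 23 without a scrambled and 32 without a sponge array lacking IL-7, and 0 with the trend. Leaving out 1 array gave 38 to 1363 calls, 17 to 808 higher and 21 to 555 lower. The 1363, mostly higher (808 against 555), came without scrambled replicate 2 with IL-7. Without sponge replicate 1 or 2 with IL-7 there were 48 and 38, and without an array lacking IL-7 92 (scrambled) or 82 (sponge). Leaving 1 array in a group assumes that it varies like the others.

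The 1219 genes whose effect depended on IL-7 became 2359 with normexp, 0 with no filter (4654 at an unadjusted p under 0.05), 702 with the replicate block, 689 with array weights and 0 to 1655 without 1 array. Without scrambled replicate 1 with IL-7 it was 12, and without scrambled replicate 1 lacking IL-7 806. It was 0 without scrambled replicate 2, sponge replicate 1 or sponge replicate 2 lacking IL-7, or either sponge array with IL-7 (3315 to 4624 at an unadjusted p under 0.05).

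No called named gene reversed except Coro2a, at 0.88 with run probes left out, where another probe stands for it. Uncalled values that changed sign were Bcl2 (-0.017) and Myc (0.0058) with normexp, and Chek1 (-0.14 to 0.57) and Dleu2 (-0.11 to 0.38) over the arrays left out, below 0 without scrambled replicate 2 with IL-7 for both and without sponge replicate 1 with IL-7 for Dleu2 (-0.11). The cause was not tested. Of 105 alternative medians of gene lists 36 moved by more than the spread, at most by 0.28. Probes not well above background limit folds to bounds.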
